A study of Mus musculus with 6 samples.

Results

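The 7 genes *C3*, *C4b*, *C1ra*, *Cfb*, *Serping1*, *Cd55* and *Masp1* code for components and regulators of complement, and they were followed in cultured vascular smooth muscle cells (VSMCs) with and without the lysine methyltransferase gene *Smyd2*. A row of the expression table was taken when its symbol equalled 1 of these 7 names, and all 7 were found among 18112 genes. The VSMCs were primary cells from the aorta of C57BL/6 mice, sequenced as 3 libraries of *Smyd2* fl/fl cells, which the labels call SMYD2 Flox, and 3 libraries of *Smyd2* SMC-/- cells, which the labels call SMYD2 KO. Both groups carry loxP sites around exon 2 of *Smyd2*, and only the *Smyd2* SMC-/- cells also carry a Cre recombinase, which the SM22α promoter (gene *Tagln*) drives, so that deletion depends on the use of that promoter by each cell. According to the methods the mice were 8 to 10 weeks old, and no treatment other than the culture medium is named in the labels. The labels place the cells at passage 6 in DMEM with 10% FBS with RNA from a Promega kit. The methods instead give passage 4, starvation overnight and TRIzol. Which of these holds for the libraries is not given in the sources used here.

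Complement is a cascade of proteases and their substrates that marks surfaces for removal. The classical pathway (C1, C4, C2), the lectin pathway (collectins, ficolins and MASP proteases) and the alternative pathway (factor B, properdin) converge on the cleavage of C3, and regulators such as C1 inhibitor in fluids and CD55 on membranes restrain each step. Most circulating complement is made by the liver, and cells of the vessel wall also transcribe several of these genes.

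Values are FPKM, fragments scaled by transcript length and by the size of the library, as the authors deposited them. Depth is not stated, and steps between low FPKM values gave approximate depths of 18800000, 20300000 and 20300000 fragments for the *Smyd2* fl/fl libraries (replicates 1, 2, 3) and of 17500000, 19950000 and 19700000 fragments for the *Smyd2* SMC-/- libraries. At these depths 1 fragment on a transcript of 2 kb was worth between 0.0246 and 0.0286 FPKM, so that the lowest value of any of the 7 genes, 0.73 FPKM for *Cfb* in *Smyd2* SMC-/- replicate 1, rested on about 34 fragments. The next lowest, *Masp1* in *Smyd2* SMC-/- replicate 2, rested on about 258 fragments.

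The replicate 1 library of each group stood apart from the other libraries. Spearman's rho over 12565 genes between replicates 2 and 3 came to 0.992 among *Smyd2* fl/fl libraries and to 0.989 among *Smyd2* SMC-/- libraries. For replicate 1 against these it came to 0.930 and 0.934 among the former and to 0.920 and 0.925 among the latter. Results for the 7 genes are therefore also given from replicates 2 and 3 only, as are the calls in the other lists. Values of 3 libraries are listed below in the order of replicates 1, 2 and 3, which is no order of treatment. The methods speak in general of independent experiments, and the labels do not say whether these libraries came from separate animals or cultures, so that p-values measure only the spread between these samples, which may be technical.

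*Smyd2* itself, which checks the labels, was at 7.87, 3.10 and 3.0 FPKM across the *Smyd2* fl/fl libraries and at 1.67, 0.40 and 0.80 FPKM across the *Smyd2* SMC-/- libraries. All *Smyd2* SMC-/- values were lower than all *Smyd2* fl/fl values, and the table does not give exon 2 separately. Of the smooth muscle markers, *Acta2*, the gene of smooth muscle actin, was the most abundant with 761, 682 and 683 FPKM across the *Smyd2* fl/fl libraries and 201, 268 and 262 FPKM across the *Smyd2* SMC-/- libraries. The contractile marker *Myh11* and *Myocd*, the gene of the coactivator myocardin, reached at most 0.22 and 0.48 FPKM in any library, close to 0 in both groups.

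The groups were compared with limma on log2(FPKM + 1) for 12565 genes that averaged 0.5 FPKM or more, with Benjamini-Hochberg adjustment over all of these, and a gene was called at an adjusted p under 0.05. Fold changes below are *Smyd2* SMC-/- minus *Smyd2* fl/fl on that log2(FPKM + 1) scale, on which changes of low genes come out too small. On it *Smyd2* differed by −1.48 (standard error 0.389), not called over 6 libraries (limma adjusted p = 0.105) and called with a block for the replicate number (adjusted p = 0.0189) and in replicates 2 and 3 only (−1.35, adjusted p = 0.00126). All 7 complement genes passed the filter. None of the 7 was called by limma without a block for the replicate number, in a table where 2.44% of genes were called (306 of 12565), and 1 of the 7, *Cd55*, had an unadjusted p under 0.05, as had 2556 of 12565 genes. With a block for that number limma called 1 of 7, again *Cd55*, where 10.4% of all genes were called (1312 of 12565). In replicates 2 and 3 only, limma called 3 of 7 (*Cd55* and *Cfb* higher, *Masp1* lower in *Smyd2* SMC-/-), where 29.0% of all genes were called (3650 of 12565). The groups did not overlap for 2 of 7, *Cd55* and *Serping1*, and they did not overlap for 28.1% of all genes tested (3533 of 12565). The median log2 fold change of the 7 genes was 0.18, against −0.018 over all genes tested, and 4 of the 7 values were above 0. That median was not stable, at 0.33 in replicates 2 and 3 only, −0.057 with a pseudocount of 0.1, and between −0.66 and 0.77 with single libraries removed.

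By mean FPKM over the 6 libraries the order of the 7 genes was *C3* (301), *Cd55* (163), *C1ra* (132), *Serping1* (99.0), *C4b* (36.7), *Masp1* (14.0) and *Cfb* (13.8). This order pools both groups, and the mean of *Cd55* came after *C3*, *Serping1* and *C1ra* among *Smyd2* fl/fl libraries, and that of *Serping1* after *C3*, *Cd55* and *C1ra* among *Smyd2* SMC-/- libraries. In neither replicate 1 library was *C3* the highest of the 7. By the pooled mean *C3* exceeded or equalled 98.5% of the genes tested, and *Cfb* 56.8%. Over all 6 libraries the ranges overlapped for each pair of neighbours in this order, as they did among *Smyd2* SMC-/- libraries alone. Among *Smyd2* fl/fl libraries alone *Serping1* (123, 152 and 129 FPKM) lay above *C4b* (18.8, 36.1 and 33.0 FPKM) without overlap. There *Masp1* (26.9, 13.1 and 12.6 FPKM) also lay above *Cfb* (5.39, 12.5 and 9.41 FPKM), by little.

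**Figure D1:**
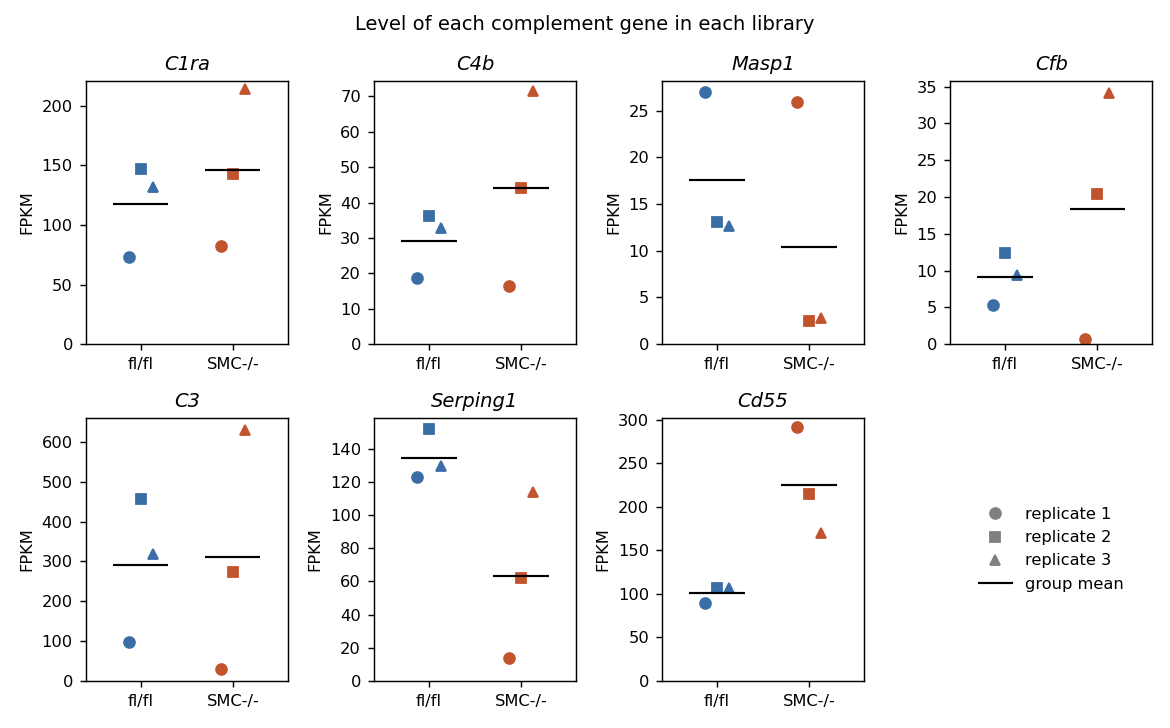
FPKM of each of the 7 complement genes (vertical axis, from 0, a different range for each gene) in Smyd2 fl/fl and Smyd2 SMC-/- libraries; symbols mark replicates 1 to 3 and the black line the mean of 3 libraries. The groups are apart for Cd55 and Serping1. In C1ra, C4b, Cfb, C3 and Serping1 the replicate 1 library is the lowest of its group in both genotypes, by little for Serping1 in Smyd2 fl/fl.

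*C1ra* codes for C1r, the protease that the recognition protein C1q activates first in the classical pathway (NCBI Gene number 50909, plus strand of chromosome 6, GRCm38 positions 124512405 to 124523443). It was at 73.3, 147 and 132 FPKM across the *Smyd2* fl/fl libraries and at 82.0, 143 and 214 FPKM across the *Smyd2* SMC-/- libraries. Both replicate 1 libraries were low, *Smyd2* SMC-/- replicate 3 was high, and the groups overlapped. The means were 117 ± 38.9 and 146 ± 65.9 FPKM (SD, n = 3 each), with a log2 fold change of 0.27 (standard error 0.405, limma adjusted p = 0.772). From replicates 2 and 3 only it was 0.33 (limma adjusted p = 0.238). Without *Smyd2* fl/fl replicate 1 it turned to −0.036, and without *Smyd2* SMC-/- replicate 3 to −0.054. *C1ra* has a near-identical paralog, *C1rb*, whose transcript was 98.0% identical over 2429 aligned bases, so that reads may be shared between them and the value of *C1ra* is uncertain to that extent.

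*C4b* codes for complement C4, which C1s and MASP2 cleave (NCBI Gene number 12268, chromosome 17 from 34728380 to 34743882, minus strand). Its levels were 18.8, 36.1 and 33.0 FPKM across the *Smyd2* fl/fl libraries, against 16.5, 44.2 and 71.6 FPKM across the *Smyd2* SMC-/- libraries. The replicate 1 libraries were again the lowest of each group and *Smyd2* SMC-/- replicate 3 the highest, with overlap between the groups. The log2 fold change was 0.40 (standard error 0.531, limma adjusted p = 0.737), and it was 0.69 in replicates 2 and 3 only (limma adjusted p = 0.0665). Without *Smyd2* SMC-/- replicate 3 it was −0.055. The *C4a* transcript was 96.1% identical to that of *C4b* over 5367 aligned bases, and *C4a* was listed at 0.11 to 0.83 FPKM, so that the division of reads between these genes is uncertain.

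The other classical pathway genes of a list grouped by role were *C1qa*, *C1qb*, *C1qc*, *C4a*, *C1s1*, *C1s2* and *C2*. The table holds 9 classical pathway genes, and 5 of these passed the filter, whose log2 fold changes lay between 0.27 and 0.77 (median 0.51), and 0 were called by limma (1 had an unadjusted p under 0.05), beside 2.44% called and 2556 of 12565 at that unadjusted p over all genes. The 3 C1q chains, which macrophages make in most tissues, did not pass 0.37 FPKM in any library, far below the RNA of the C1 proteases. *C1s1*, the gene of the second C1 protease, was at 138, 305 and 261 FPKM across the *Smyd2* fl/fl libraries and at 355, 326 and 476 FPKM across the *Smyd2* SMC-/- libraries. The *Smyd2* SMC-/- libraries lay above all *Smyd2* fl/fl libraries, and the log2 fold change of 0.77 was not called (standard error 0.317, limma adjusted p = 0.239), nor was the 0.48 of replicates 2 and 3 only (adjusted p = 0.0992). With single libraries removed it ran from 0.43 (without *Smyd2* fl/fl replicate 1) to 0.999 (without *Smyd2* fl/fl replicate 2). *C1s1* lies 6.9 kb from *C1ra* on the opposite strand, and it shares 95.9% of its aligned bases with *C1s2*. *C2*, the protease that joins C4 in the C3 convertase, was at 0.27, 2.65 and 2.66 FPKM across the *Smyd2* fl/fl libraries and at 0.41, 5.37 and 6.31 FPKM across the *Smyd2* SMC-/- libraries. Its log2 fold change was 0.65 (limma adjusted p = 0.685), and 0.90 in replicates 2 and 3 only (limma adjusted p = 0.00292), where 29.0% of all genes were called. With single libraries removed it ran from 0.14 (without *Smyd2* fl/fl replicate 1) to 1.41 (without *Smyd2* SMC-/- replicate 1).

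*Masp1* codes for lectin pathway proteases that bind collectins and ficolins, and the single row of the table sums its splice forms (NCBI Gene number 17174, chromosome 16 from 23449417 to 23520815, minus strand). It was at 26.9, 13.1 and 12.6 FPKM across the *Smyd2* fl/fl libraries and at 26.0, 2.47 and 2.82 FPKM across the *Smyd2* SMC-/- libraries. The replicate 1 libraries had the highest values and hardly differed from each other, while in replicates 2 and 3 both *Smyd2* SMC-/- libraries lay well below both *Smyd2* fl/fl libraries. The difference was −0.052 in the replicate 1 pair, −2.03 in the replicate 2 pair and −1.84 in the replicate 3 pair on the log2 scale. Over all 6 libraries the log2 fold change was −1.30 (standard error 0.804, 95% interval from −3.23 to 0.62, limma adjusted p = 0.429). Replicates 2 and 3 alone gave −1.93 (standard error 0.120, limma adjusted p = 5.9e-05), and without *Smyd2* SMC-/- replicate 1 alone it was −2.27 (limma adjusted p = 0.0275). Over the 13 alternative settings the limma adjusted p of *Masp1* ran from 5.9e-05 to 0.758.

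Of the other lectin pathway genes, *Mbl2*, *Fcna*, *Colec10* and *Masp2* stayed at or under 0.16 FPKM in each library. *Colec11*, the gene of collectin 11, was at 0.18, 0.24 and 0.19 FPKM across the *Smyd2* fl/fl libraries and at 0.42, 3.15 and 2.27 FPKM across the *Smyd2* SMC-/- libraries. *Colec12*, the gene of a scavenger receptor of the collectin family, was at 34.5, 37.1 and 31.9 FPKM across the *Smyd2* fl/fl libraries and at 24.6, 15.1 and 20.8 FPKM across the *Smyd2* SMC-/- libraries. The groups did not overlap for either gene, with *Colec11* above and *Colec12* below *Smyd2* fl/fl. Of the 3 lectin pathway genes tested limma called 0 over 6 libraries (2 with an unadjusted p under 0.05), with a log2 fold change of 1.16 for *Colec11* (adjusted p = 0.176) and of −0.77 for *Colec12* (adjusted p = 0.0887). Limma called both in replicates 2 and 3 only, at 1.6 (adjusted p = 0.000536) and −0.92 (adjusted p = 0.00564). Over all genes 2.44% were called over 6 libraries and 29.0% in replicates 2 and 3 only, and 28.1% did not overlap.

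*Cfb* codes for factor B, the protease of the alternative pathway convertase (NCBI Gene number 14962, chromosome 17 from 34856374 to 34862518, minus strand). It was at 5.39, 12.5 and 9.41 FPKM across the *Smyd2* fl/fl libraries and at 0.73, 20.4 and 34.1 FPKM across the *Smyd2* SMC-/- libraries. *Smyd2* SMC-/- held both the lowest library, replicate 1, and the highest pair, so that its range enclosed all *Smyd2* fl/fl values. The difference was −1.89 in the replicate 1 pair and 0.67 and 1.75 in the replicate 2 and replicate 3 pairs. Their balance gave a log2 fold change of 0.18 (standard error 1.08, limma adjusted p = 0.952). Replicates 2 and 3 alone gave 1.21 (standard error 0.263, limma adjusted p = 0.0241), and over the 13 alternative settings the limma adjusted p ran from 0.0241 to 0.987. Without *Smyd2* fl/fl replicate 1 the fold change was −0.12, and without *Smyd2* SMC-/- replicate 2 or 3 it was −0.31 or −0.66. *Cfb* and *C2* are 86 bases apart, and *C4b* lies 112 kb from *Cfb*, so that reads of *Cfb* and *C2* may be mixed where transcripts run on. Properdin, which stabilises the alternative convertase and is coded by *Cfp*, was at 3.58, 2.35 and 2.77 FPKM across the *Smyd2* fl/fl libraries and at 7.44, 1.97 and 2.43 FPKM across the *Smyd2* SMC-/- libraries. In both groups replicate 1 was highest for *Cfp*, the reverse of *Cfb*. Its log2 fold change was 0.19 (limma adjusted p = 0.848), and −0.16 in replicates 2 and 3 only (adjusted p = 0.482). Neither of the 2 alternative pathway genes was called by limma over 6 libraries (0 with an unadjusted p under 0.05). Beside this, 2.44% of all genes were called over 6 libraries and 2556 of 12565 had that unadjusted p. In replicates 2 and 3 only, where *Cfb* was called, 29.0% of all genes were called.

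**Figure D2:**
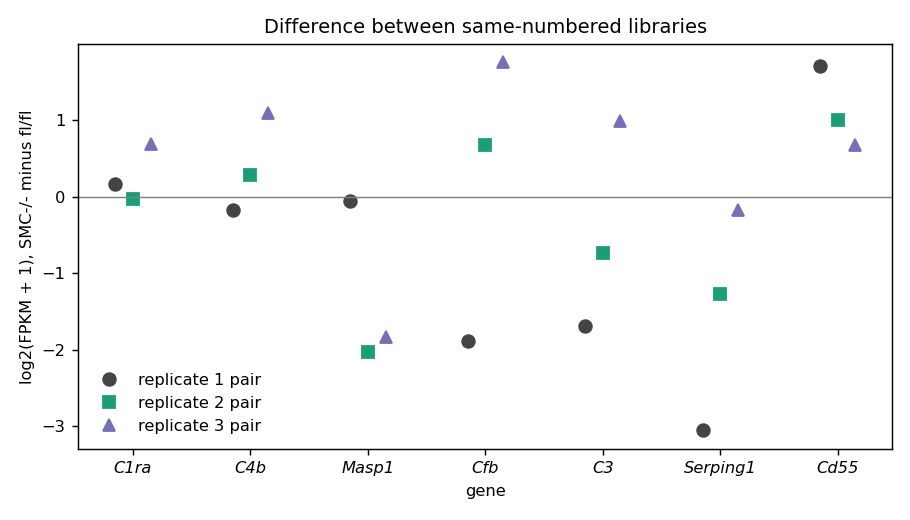
Difference between the Smyd2 SMC-/- and the Smyd2 fl/fl library of the same replicate number for the 7 genes, in log2(FPKM + 1); each symbol is 1 pair. The pairs of Cd55 lie above 0 and those of Serping1 below 0, while Masp1 is near 0 in the replicate 1 pair alone and Cfb, C3, C4b and C1ra have pairs on both sides of 0.

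*C3* is the component on which the pathways converge and had the highest mean of the 7 genes (NCBI Gene number 12266, chromosome 17 from 57203970 to 57228136, minus strand). It was at 98.9, 456 and 318 FPKM across the *Smyd2* fl/fl libraries and at 30.0, 273 and 630 FPKM across the *Smyd2* SMC-/- libraries. Both replicate 1 libraries were low and the *Smyd2* SMC-/- libraries spanned all *Smyd2* fl/fl values. The highest *Smyd2* SMC-/- library had 21.0 times the FPKM of the lowest, and the highest *Smyd2* fl/fl library 4.61 times that of the lowest. Means of 291 ± 180 and 311 ± 302 FPKM (SD, n = 3 each) gave a ratio of 1.07, while the log2 fold change was −0.48 (standard error 1.14, 95% interval from −3.21 to 2.25, limma adjusted p = 0.866). The pairs with the same number differed by −1.69, −0.74 and 0.98. In replicates 2 and 3 only the log2 fold change was 0.12 (limma adjusted p = 0.875), and without *Smyd2* SMC-/- replicate 1 it was 0.77 (limma adjusted p = 0.536). No difference of *C3* between genotypes was detectable beyond this spread.

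Promoter sequence was looked up in RefSeq (GRCm38.p6) as the 250 bases before the start of each gene, and 3 of the 7 genes had an entry (*C3*, *C1ra* and *Cd55*), while *C4b*, *Cfb*, *Serping1* and *Masp1* had none. Both strands were searched for motifs of inflammatory regulation and of smooth muscle, namely TTCNNNGAA (interferon-gamma activated site, in 7.02% of 32851 promoters), GAAANNGAAA (interferon-stimulated response element, 2.98%), TTGCNNAA (C/EBP, 9.56%), the NF-kappa-B motif (7.25%) and the CArG box (1.47%). *C3* is shown since it had the highest mean of the 7 genes and varied with replicate number, and *Cd55*, further below, since it came next and varied with genotype. The *C3* sequence (chr17:57228137-57228386, minus strand) reads 5′ to 3′ towards the start of the gene, and capitals mark a C/EBP match at positions −45 to −38, which describes letters only. The *C1ra* window (chr6:124512371-124512620, plus strand) held none of the motifs, and most of it lies after the *C1ra* start given above, since RefSeq places the start further on.
C3: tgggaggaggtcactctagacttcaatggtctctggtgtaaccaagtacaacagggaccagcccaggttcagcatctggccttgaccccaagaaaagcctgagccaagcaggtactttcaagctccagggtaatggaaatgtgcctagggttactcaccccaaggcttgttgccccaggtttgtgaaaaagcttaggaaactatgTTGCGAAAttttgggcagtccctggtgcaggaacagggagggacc

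Of the components after *C3*, *Hc* (the gene of C5), *C6*, *C7*, *C8a* and *C8b* did not exceed 0.11 FPKM in any library. *C8g* and *C9* passed the filter at low levels, *C8g* with 1.05, 1.72 and 0.68 FPKM across the *Smyd2* fl/fl libraries and 1.61, 0.86 and 1.2 FPKM across the *Smyd2* SMC-/- libraries. *C9* was at 0.06, 0.42 and 0.54 FPKM across the *Smyd2* fl/fl libraries and at 0.38, 1.24 and 0.98 FPKM across the *Smyd2* SMC-/- libraries. The RNA of *C3* was thus present at a high level with little or none for most of the terminal pathway. The log2 fold change of *C9* was 0.47 (limma adjusted p = 0.372), and 0.51 in replicates 2 and 3 only, where limma called it (adjusted p = 0.0353). For *C8g* the values were 0.063 (adjusted p = 0.923) and −0.080 (adjusted p = 0.829). Limma called 0 of the 3 central and terminal genes tested over 6 libraries (0 with an unadjusted p under 0.05). The same fit called 2.44% of all genes, and 2556 of 12565 had that unadjusted p. In replicates 2 and 3 only, where *C9* was called, 29.0% of all genes were called.

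*Serping1* codes for C1 inhibitor, the serpin that inactivates C1r, C1s and the MASP proteases (NCBI Gene number 12258, chromosome 2 from 84765387 to 84775444, minus strand). It was at 123, 152 and 129 FPKM across the *Smyd2* fl/fl libraries and at 13.9, 62.1 and 114 FPKM across the *Smyd2* SMC-/- libraries. All *Smyd2* SMC-/- values were lower than the lowest *Smyd2* fl/fl value, with replicate 1 far below and replicate 3 close to the *Smyd2* fl/fl values. The *Smyd2* fl/fl libraries differed by 1.24 times between highest and lowest and the *Smyd2* SMC-/- libraries by 8.21 times. Means were 135 ± 15.2 and 63.4 ± 50.1 FPKM (SD, n = 3 each), and the log2 fold change was −1.50 (standard error 0.694, 95% interval from −3.17 to 0.16), which was not called (limma adjusted p = 0.290, two-sided exact permutation p = 0.1, the smallest p that 3 against 3 allow). In replicates 2 and 3 only it was −0.73 (limma adjusted p = 0.135), and after removal of any single library it lay between −2.14 and −0.67. The pairs differed by −3.05, −1.28 and −0.18. In bulk libraries such as these, fewer cells that express a gene and less of its RNA in each cell cannot be told apart.

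Among the other regulators in fluids, *C4bp*, the gene of the C4b-binding protein alpha chain, was the only complement gene that limma called over 6 libraries. It was at 0.85, 2.12 and 1.86 FPKM across the *Smyd2* fl/fl libraries and at 9.0, 7.22 and 8.46 FPKM across the *Smyd2* SMC-/- libraries. All *Smyd2* SMC-/- libraries were above all *Smyd2* fl/fl libraries, with a log2 fold change of 1.85 (standard error 0.235, limma adjusted p = 0.0171, or 0.0213 with the replicate block). The call was lost without *Smyd2* fl/fl replicate 2 or 3 (limma adjusted p = 0.0664 and 0.0867) and without *Smyd2* SMC-/- replicate 2 or 3 (limma adjusted p = 0.0789 and 0.106), and in replicates 2 and 3 only the log2 fold change was 1.56 (limma adjusted p = 0.000289). *Clu*, the gene of clusterin, which binds terminal complexes, was at 11.2, 139 and 96.0 FPKM across the *Smyd2* fl/fl libraries and at 101, 598 and 810 FPKM across the *Smyd2* SMC-/- libraries. Each *Smyd2* SMC-/- library exceeded its same-numbered *Smyd2* fl/fl library, but the groups overlapped, since *Smyd2* SMC-/- replicate 1 lay below *Smyd2* fl/fl replicate 2. The log2 fold change of *Clu* was 2.74 (standard error 1.13, limma adjusted p = 0.240), and limma called it with the replicate block (adjusted p = 0.010) and in replicates 2 and 3 only (log2 fold change 2.58, adjusted p = 0.000428). With single libraries removed it ran from 1.65 (without *Smyd2* fl/fl replicate 1) to 3.66 (without *Smyd2* SMC-/- replicate 1). Of all genes 2.44% were called over 6 libraries, 10.4% with the replicate block and 29.0% in replicates 2 and 3 only. *Cfi*, *Vtn*, *Cpn1* and *Cpn2* were not tested and stayed at or under 1.05 FPKM.

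*Cd55* codes for decay accelerating factor, the membrane protein that dissociates the C3 convertases on host cells (NCBI Gene number 13136, chromosome 1 from 130439027 to 130462744, minus strand). It was at 89.2, 107 and 106 FPKM across the *Smyd2* fl/fl libraries and at 292, 214 and 170 FPKM across the *Smyd2* SMC-/- libraries. Every *Smyd2* SMC-/- library lay above every *Smyd2* fl/fl library, and the *Smyd2* fl/fl libraries were close together. The means of 101 ± 10.0 and 226 ± 61.8 FPKM (SD, n = 3 each) had a ratio of 2.24, and the pairs had ratios of 3.28, 2.01 and 1.6. The log2 fold change was 1.13 (standard error 0.214, 95% interval from 0.61 to 1.64, limma adjusted p = 0.0542, two-sided exact permutation p = 0.1, the smallest that 3 against 3 allow). With a block for the replicate number limma called it (adjusted p = 0.0412), as it did in replicates 2 and 3 only (log2 fold change 0.84, adjusted p = 0.00404) and without *Smyd2* SMC-/- replicate 1 (0.92, adjusted p = 0.0399). Over the 13 alternative settings its fold change lay between 0.84 and 1.31 and its limma adjusted p between 0.00404 and 0.178. Rescaling of each library to the same sum (TPM) shifted the median over all genes by 0.11 and the calls from 154 higher and 152 lower to 247 higher and 99 lower. Under that scaling *Cd55* was called at 1.25 (limma adjusted p = 0.0343), or 1.14 relative to the shift. The paralog *Cd55b*, 16.0 kb away and 88.4% identical to *Cd55* over 1313 aligned bases, was listed at 0.05 FPKM in *Smyd2* fl/fl replicate 3 and at 0 in the other libraries.

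The 250 bases before the start of *Cd55* in RefSeq (chr1:130462745-130462994, minus strand, GRCm38.p6) held none of the 5 motifs named for *C3*, and they read 5′ to 3′ as follows.
Cd55: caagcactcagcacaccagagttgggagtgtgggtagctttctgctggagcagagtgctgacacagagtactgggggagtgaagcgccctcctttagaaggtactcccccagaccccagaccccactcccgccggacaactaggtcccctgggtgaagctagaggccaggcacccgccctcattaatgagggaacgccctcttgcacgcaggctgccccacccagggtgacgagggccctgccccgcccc

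Of the remaining membrane regulators, *Cd59a*, the gene of an inhibitor of the terminal complex, was at 9.95, 10.0 and 8.35 FPKM across the *Smyd2* fl/fl libraries and at 8.69, 10.2 and 9.84 FPKM across the *Smyd2* SMC-/- libraries, with a log2 fold change of 0.020 (95% interval from −0.32 to 0.35), or 0.12 in replicates 2 and 3 only. *Cr1l*, the gene of the rodent C3 convertase regulator Crry, was at 15, 24.9 and 20.6 FPKM across the *Smyd2* fl/fl libraries and at 18.9, 23.4 and 20.2 FPKM across the *Smyd2* SMC-/- libraries, with a log2 fold change of 0.068 (95% interval from −0.41 to 0.55), or −0.057 in replicates 2 and 3 only. *Csmd1* was at 0.09, 1.02 and 1.07 FPKM across the *Smyd2* fl/fl libraries and at 0.11, 0.27 and 0.25 FPKM across the *Smyd2* SMC-/- libraries, too low on average to be tested. *Cd46*, *Cd59b* and *Susd4* stayed at or under 0.69 FPKM, and limma called 0 of 3 membrane regulators over 6 libraries (1, *Cd55*, with an unadjusted p under 0.05). Of all genes 2.44% were called in that fit, and 2556 of 12565 had that unadjusted p.

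Among receptors, the C5a receptor genes *C5ar1* and *C5ar2*, *Cr2* and *Itgam* reached at most 0.11 FPKM. *C3ar1*, the C3a receptor gene, was at 2.85, 1.86 and 2.05 FPKM across the *Smyd2* fl/fl libraries and at 1.83, 1.22 and 0.66 FPKM across the *Smyd2* SMC-/- libraries. *C1qbp*, the gene of a mitochondrial protein that also binds C1q, was at 109, 91.7 and 90.3 FPKM across the *Smyd2* fl/fl libraries and at 82.9, 66.5 and 59.9 FPKM across the *Smyd2* SMC-/- libraries. For both genes no *Smyd2* SMC-/- library reached the lowest *Smyd2* fl/fl value, with log2 fold changes of −0.56 (limma adjusted p = 0.271) and −0.48 (limma adjusted p = 0.172). In replicates 2 and 3 only limma called both, at −0.62 (adjusted p = 0.0334) and −0.52 (adjusted p = 0.00996), and *C1qbp* was called with the replicate block as well (adjusted p = 0.0441). *Calr*, the gene of calreticulin, and *Itgb2* overlapped between the groups, and limma called 0 of 4 receptor genes over 6 libraries (1 with an unadjusted p under 0.05). The shares of all genes were 2.44% called over 6 libraries, 29.0% called in replicates 2 and 3 only and 28.1% without overlap.

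Over the complement list, 49 of 55 genes were in the table and 23 passed the filter. Limma called 1 of 23 over 6 libraries, higher in *Smyd2* SMC-/-, against 2.44% of all genes, and 7 (30.4%) had an unadjusted p under 0.05, against 2556 of 12565 (20.3%). It called 4 (17.4%) with the replicate block, 3 higher and 1 lower, against 10.4% of all genes, and 11 (47.8%) in replicates 2 and 3 only, 7 higher and 4 lower, against 29.0%. The groups did not overlap for 8 of 23 genes (34.8%), 4 above and 4 below, against 28.1% of all genes. Whether these shares differ was not tested. The median log2 fold change of the 23 genes was 0.19, and 0.31 after TPM rescaling, against medians of −0.018 and 0.095 over all genes tested. It was 0.13 in replicates 2 and 3 only, and between 0.047 and 0.42 with single libraries removed.

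**Figure D3:**
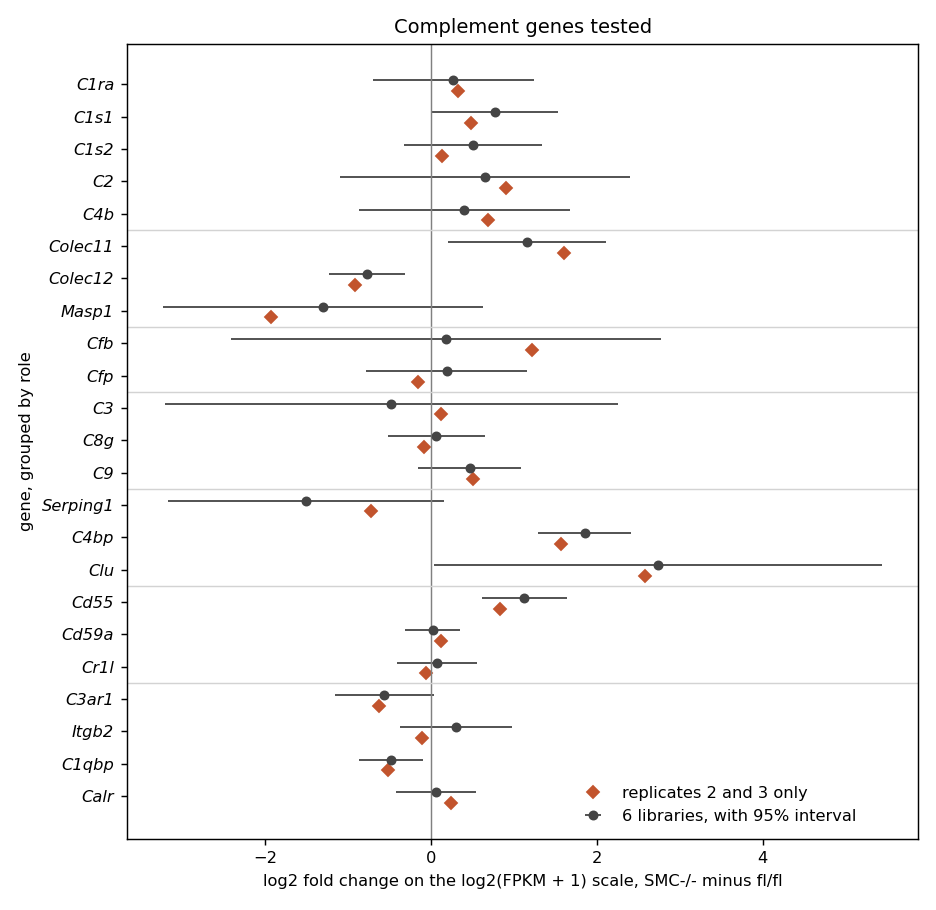
Log2 fold change, Smyd2 SMC-/- minus Smyd2 fl/fl on the log2(FPKM + 1) scale, of the 23 complement genes tested, grouped by role; dots are limma estimates over 6 libraries with 95% intervals and diamonds are estimates from replicates 2 and 3 only. The intervals are not adjusted for the number of genes, and limma called only C4bp over 6 libraries. Those of C4bp, Cd55, Colec11, Clu and C1s1 lie above 0 and those of Colec12 and C1qbp below 0. The intervals of the other genes, C3, Cfb, C4b and C1ra among them, extend to both sides of 0.

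The sum of squares of log2(FPKM + 1) over the 6 libraries was divided into a part for genotype, a part for replicate number and a remainder, as a description with no test. The replicate number has 2 degrees of freedom and the genotype 1, so that their shares are not compared directly. The replicate number held 84.7% for *C1ra*, 83.3% for *C3*, 77.5% for *C4b*, 69.2% for *Cfb* and 57.5% for *Masp1*. It held 31.6% for *Serping1* and 3.13% for *Cd55*. The genotype held 84.6% for *Cd55*, 42.2% for *Serping1* and 29.0% for *Masp1*, and 8.27% or less for the other 4 genes. The median over the 7 genes was 8.27% for genotype and 69.2% for replicate number, against 25.4% and 43.4% over all genes tested.

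**Figure D4:**
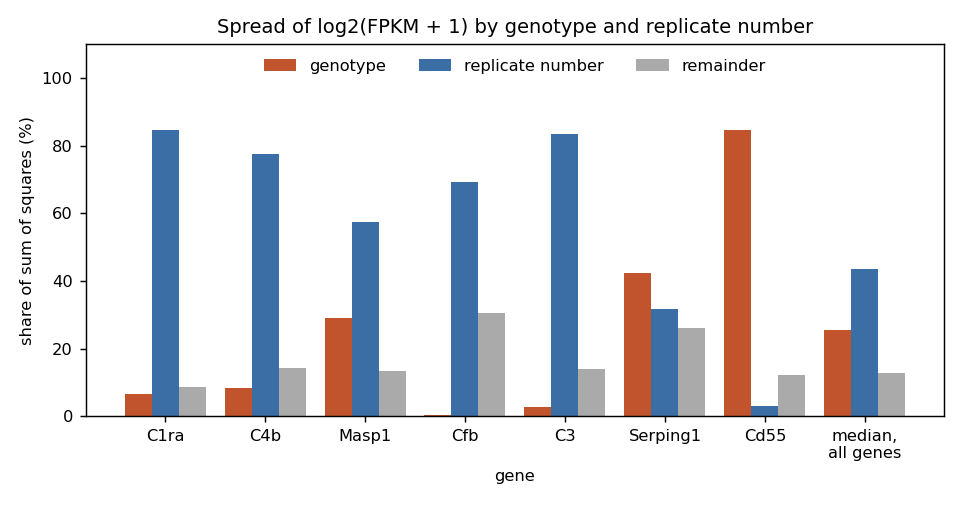
Share of the sum of squares of log2(FPKM + 1) over the 6 libraries, in percent, held by genotype, by replicate number and by the remainder, for the 7 genes and as the median over all genes tested. Cd55 has the tallest genotype bar (84.6%) and C1ra the tallest replicate bar (84.7%).

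Genes whose pattern over the 6 libraries was most like that of each of the 7 were taken by Pearson's r of log2(FPKM + 1) among 8606 other genes that averaged 5 FPKM or more. With 6 libraries, of which the replicate 1 libraries stand apart, these values are a description only. Nearest to *C1ra* was the fibroblast growth factor receptor gene *Fgfr2* (r = 0.999), followed by *Spin1* (0.991) and *Rnd3* (0.990), and nearest to *C4b* were *Serinc3* (0.984), *Zbtb4* (0.983) and *Spin1* (0.983). Nearest to *C3* were *Limd1* (0.996), *Arf3* (0.995) and *AU040320* (0.993), whose levels ranged far less than *C3*, from 8.24 to 11.6 FPKM for *Limd1*. Nearest to *Cfb* were *Cdh13* (0.997), *Vcl* (0.991) and *Sdc4* (0.989), and nearest to *Masp1* were *Rabep1* (0.999), *Fads3* (0.998) and *Uhrf2* (0.997). Among the genes most like *Cd55* were the small heat shock protein gene *Hspb8* (0.990) and *Gla*, the gene of a lysosomal enzyme (0.985). For *Serping1* the nearest genes were *Reep5* (0.976), *Zdhhc18* (0.975) and *Rnf11* (0.971).

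Genes of other pathways shared the low replicate 1 values of *C3*, *C1ra*, *C4b* and *Cfb*. The 15 interferon response genes were low in both replicate 1 libraries, with a median log2 difference from replicates 2 and 3 of −2.51 among *Smyd2* fl/fl libraries and of −2.99 among *Smyd2* SMC-/- libraries, against 0.031 and 0.14 over all genes tested. The same median difference over the 7 complement genes came to −0.84 and −1.71, in that order, and over the 23 complement genes tested to −0.25 and −0.18. Of the 7, *Serping1* was also lowest in replicate 1 in both groups. *Masp1* went the other way, highest in replicate 1 in both groups, and *Cd55* was highest there among *Smyd2* SMC-/- libraries only. Between genotypes limma called 0 of 15 interferon genes (0 with an unadjusted p under 0.05), with a median log2 fold change of 0.11, and it called 0 in replicates 2 and 3 only. For this list and the next, the share of all genes called over 6 libraries was 2.44%. Of 20 genes of the NF-kB and acute-phase response limma called 1, *Tnfaip3*, an inhibitor of NF-kB signalling, which was at 21.2, 12.3 and 12.8 FPKM across the *Smyd2* fl/fl libraries and at 4.94, 5.0 and 5.35 FPKM across the *Smyd2* SMC-/- libraries (log2 fold change −1.39, limma adjusted p = 0.0347). That call was lost without the filter on low FPKM (adjusted p = 0.0553), without *Smyd2* fl/fl replicate 2 or 3 (adjusted p = 0.0999 and 0.123) and without *Smyd2* SMC-/- replicate 2 or 3 (adjusted p = 0.144 and 0.156). In replicates 2 and 3 only *Tnfaip3* was at −1.13 (adjusted p = 0.000428), and 2 of the 20 genes were called higher and 7 lower, where 29.0% of all genes were called. Over 6 libraries 6 of the 20 had an unadjusted p under 0.05, beside 2556 of 12565 genes at that unadjusted p. The groups did not overlap for the same 6 genes (30% of the list), each lower in *Smyd2* SMC-/-. Over all genes tested 28.1% did not overlap (3533 of 12565), 1642 higher and 1891 lower in *Smyd2* SMC-/-. The median log2 fold change of all 20 was 0.021. The part of these genes in the complement values was not tested.

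Of 4 markers of the liver, the main source of circulating complement, 3 were highest in *Smyd2* SMC-/- replicate 3, the library with the highest *C3*, *C1ra*, *C4b* and *Cfb*. The 4 summed to 0.52, 4.42 and 3.10 FPKM across the *Smyd2* fl/fl libraries and to 3.84, 5.6 and 20.3 FPKM across the *Smyd2* SMC-/- libraries. Most of this was albumin (*Alb*), the defining and most abundant marker, at 0.30, 3.32 and 2.39 FPKM across the *Smyd2* fl/fl libraries and at 2.85, 4.58 and 16.4 FPKM across the *Smyd2* SMC-/- libraries. Limma called 0 of 2 tested (0 with an unadjusted p under 0.05), and 0 in replicates 2 and 3 only. Of all genes 2.44% were called over 6 libraries and 29.0% in replicates 2 and 3 only. An unadjusted p under 0.05 was reached by 2556 of 12565. In *Smyd2* SMC-/- replicate 3 *Apoa1* (2.67 FPKM) and *Ttr* (1.25 FPKM) were also at their highest, while *C3* was at 630 FPKM. *Serpina1a* was at 0.05 FPKM in *Smyd2* fl/fl replicate 1 and at 0 in the other libraries. The part of the liver markers in the complement values was not tested.

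According to the methods the tissue around the aorta and its adventitial layer were taken off, the endothelium was stripped, and smooth muscle actin served to check the purity of the cultures. Among fibroblast and adventitial markers limma called 1 of 8, *Dpt*, lower in *Smyd2* SMC-/-, with a median log2 fold change of −1.20 and 4 at an unadjusted p under 0.05, beside 2.44% called and 2556 of 12565 at that unadjusted p over all genes. In replicates 2 and 3 only it called 1 higher and 5 lower, where 29.0% of all genes were called. Their sum was 663, 1362 and 1275 FPKM across the *Smyd2* fl/fl libraries and 1414, 1402 and 1037 FPKM across the *Smyd2* SMC-/- libraries, with *Col1a1* the most abundant, at 362, 444 and 491 FPKM across the *Smyd2* fl/fl libraries and 1333, 831 and 522 FPKM across the *Smyd2* SMC-/- libraries. The defining marker *Pdgfra* was at 18.1, 31.9 and 29.8 FPKM across the *Smyd2* fl/fl libraries and at 11.8, 4.85 and 7.10 FPKM across the *Smyd2* SMC-/- libraries. Smooth muscle markers summed to 922, 821 and 814 FPKM across the *Smyd2* fl/fl libraries and to 263, 429 and 376 FPKM across the *Smyd2* SMC-/- libraries, with 1 of 5 called by limma as lower, *Acta2* (−1.55 on the log2 scale, adjusted p = 0.00803). The *Acta2* call was lost without *Smyd2* fl/fl replicate 2 or 3 (adjusted p = 0.0541 and 0.0615) or *Smyd2* SMC-/- replicate 3 (adjusted p = 0.0533), and it held in replicates 2 and 3 only (−1.36, adjusted p = 0.000241), where 1 smooth muscle marker was called higher and 1 lower. The part of either list in the complement values was not tested.

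Markers of leukocytes, which make C1q and carry *C3ar1*, stayed low apart from *Cd14*. The 8 genes summed to 43.9, 30.3 and 26.95 FPKM across the *Smyd2* fl/fl libraries and to 41.7, 18.5 and 23.4 FPKM across the *Smyd2* SMC-/- libraries, of which *Cd14* gave 37.7, 21.9 and 17.7 FPKM and 35.3, 10.6 and 16.1 FPKM. The defining marker *Ptprc* was at or under 0.02 FPKM in every library, and limma called 0 of 5 tested (1 with an unadjusted p under 0.05), and 1 higher and 1 lower in replicates 2 and 3 only. Endothelial markers summed to at most 5.41 FPKM in any library. By the mean over 6 libraries *Kdr* was the most abundant, but *Pecam1* was higher than *Kdr* in each *Smyd2* fl/fl library. *Kdr* was at 0.47, 0.58 and 0.84 FPKM across the *Smyd2* fl/fl libraries and at 0.96, 5.15 and 2.96 FPKM across the *Smyd2* SMC-/- libraries. The defining *Pecam1*, too low to be tested, lay the other way, at 0.56, 0.88 and 0.92 FPKM across the *Smyd2* fl/fl libraries and 0.12, 0.18 and 0 FPKM across the *Smyd2* SMC-/- libraries, with no overlap for either gene. Limma called 0 of 1 tested (1 with an unadjusted p under 0.05), and *Kdr* as higher in replicates 2 and 3 only (1.53, adjusted p = 0.00260). Adipocyte markers summed to 6.27, 5.04 and 3.12 FPKM across the *Smyd2* fl/fl libraries and to 119, 5.39 and 6.07 FPKM across the *Smyd2* SMC-/- libraries. *Fabp4*, the most abundant, gave nearly all of it, and the defining *Adipoq* was at or under 0.09 FPKM (limma called 0 of 1 tested, 0 with an unadjusted p under 0.05, and 0 in replicates 2 and 3 only). Beside these counts, 2.44% of all genes were called over 6 libraries, 29.0% were called in replicates 2 and 3 only and 28.1% did not overlap. *Smyd2* SMC-/- replicate 1, where *Fabp4* was high, was also the library with the lowest *Serping1*, *C3*, *C4b* and *Cfb* and the highest *Cd55*, and the part of this in their values was not tested.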

How the data were processed

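RNA of 6 libraries of mouse aortic VSMCs, 3 per genotype, was analysed from the table of FPKM values that the authors deposited, which keeps 2 decimals and covers 18112 genes (1125 without a symbol). According to the methods and the submitters' processing notes, the authors filtered reads with SOAPnuke, used HISAT and Bowtie2 for mapping and took expression from RSEM; versions and genome build are not given in the sources used here. Genotype and replicate number came from the labels, and each column of values was matched to a sample. Positions are from GENCODE M21 (GRCm38), matched through the RefSeq transcripts in the table.

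Log2(FPKM + 1) of genes averaging 0.5 FPKM or more was compared between groups by limma (version 3.58.1 under R 4.3.3; functions lmFit and eBayes, the latter with a trend and robust, two-sided, Benjamini-Hochberg), and the fit was tested on simulated data. Python 3.11.15 with pandas 2.3.3, numpy 2.4.6, matplotlib 3.10.9 and biopython 1.88 served for the rest, including pairwise alignment of transcripts. Depth was estimated from single-transcript genes, with 62.4% to 70.2% of low values within 0.15 of a whole fragment, where 30% would be by chance, so that fragment numbers are approximate. Deviations from the group mean correlated across genes by 0.61, 0.46 and 0.53 between libraries of the same number (replicates 1, 2 and 3). Replicates 2 and 3 of different groups correlated by 0.46 and 0.44, much as same-numbered ones did. Deviations cancel within each group and replicate 1 stood apart in both, so these values cannot show that libraries were paired by number. As an alternative the number was also used as a block.

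Alternatives were a pseudocount of 0.1, no filter, the replicate block, leaving out each library, replicates 2 and 3 only, TPM rescaling, quantile normalization, and for counts of genes a fold change above 2 with an adjusted p under 0.01. A block for replicate 1 against the others was added after seeing the data. So were the results of the other complement genes, *Tnfaip3*, *Acta2* and *Smyd2* under each setting, and the count of the 7 genes called. Named were the 7 genes in full, other genes of a complement list by role, at most 3 called genes of each context or marker list, the most abundant and the defining gene of each marker list, and the 3 genes most like each of the 7; *Smyd2*, untested list genes and further markers (*Myh11*, *Myocd*, *Apoa1*, *Ttr*, *Serpina1a*) were named after their values were seen. The 7 genes and the lists were chosen with earlier results of these data known.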

Additional observations from a re-analysis of the deposited data

Results flagged for a closer look

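A table entry without a symbol, BGI_novel_G001209, which the authors' annotation lists as decay accelerating factor, the product of *Cd55*, is a signal outside the named complement genes. It was at 2.85, 3.49 and 3.87 FPKM across the *Smyd2* fl/fl libraries and at 7.58, 8.60 and 5.66 FPKM across the *Smyd2* SMC-/- libraries (replicates 1, 2 and 3). Every *Smyd2* SMC-/- library lay above every *Smyd2* fl/fl library, with means of 3.40 ± 0.515 and 7.28 ± 1.49 FPKM (SD, n = 3 each). The log2 fold change was 0.90 (standard error 0.193), not called by limma over 6 libraries (adjusted p = 0.0679; exact permutation, two-sided, p = 0.1), and called with the replicate block (adjusted p = 0.0476) and in replicates 2 and 3 only (0.77, adjusted p = 0.0182). Whether its reads come from the *Cd55* gene was not tested. The table lists 9 such entries without a symbol under complement proteins, and each of the other 8 was at or under 1.87 FPKM in every library.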

How the results depend on the processing

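For the 7 genes, 74 of 91 values under the 13 alternatives kept their direction and their side of the threshold, 8 passed it and 9 turned direction. Without 1 library at a time the log2 fold change ran from −1.41 to 0.77 for *C3*, −0.055 to 0.97 for *C4b*, −0.054 to 0.63 for *C1ra*, −0.66 to 1.51 for *Cfb*, 0.92 to 1.31 for *Cd55*, −2.27 to −0.79 for *Masp1* and −2.14 to −0.67 for *Serping1*. The turned values were 0.77 for *C3* without *Smyd2* SMC-/- replicate 1, −0.055 for *C4b* and −0.054 for *C1ra* without *Smyd2* SMC-/- replicate 3, −0.036 for *C1ra* without *Smyd2* fl/fl replicate 1, and −0.12, −0.31 and −0.66 for *Cfb* without *Smyd2* fl/fl replicate 1 and *Smyd2* SMC-/- replicates 2 and 3. *C3* also turned in replicates 2 and 3 only (0.12), and *Cfb* with a pseudocount of 0.1 (−0.057). Limma called in replicates 2 and 3 only *Cfb* (1.21), *Cd55* (0.84) and *Masp1* (−1.93), and *Cd55* after TPM rescaling (1.25). The cause was not tested. With the replicate block *Cd55* (1.13) was called, and calls went from 306 to 1312 over all genes, from 1 to 4 over complement genes and from 0 to 1 over the 7 genes; the block changed no other call of the 7 genes. With the added block for replicate 1 against the others *Cd55* (1.13) was called too, and these counts were 2550, 6 and 1. They were 3650, 11 and 3 in replicates 2 and 3 only, 34 to 686, 0 to 5 and 0 to 2 without 1 library at a time, and 53, 0 and 0 at the cutoffs in the methods; TPM rescaling gave 2 complement genes and 1 of the 7. Groups are of 3 libraries each, and RNA alone says nothing of secreted or membrane-bound protein.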
